A study of Drosophila melanogaster with 38 samples.

Results

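The first 12 h of label loss from chromatin of wild-type (WT) Drosophila melanogaster larvae were examined at all 1883 O-GlcNAc peaks of the series. Every peak of the deposited table was used, with its WT signal at 0, 4, 8 and 12 h of chase. Which libraries these peaks were called from was not examined here. The part that peak calling may have in the loss seen at all peaks was not tested. Of the 38 libraries of the series, 8 stand behind these values, 2 biological replicates at each of the 4 times. WT larvae of the strain Oregon R hatched and grew on food with 150 uM Ac4GalNAz for 36 h, and were then frozen at once (0 h) or moved to plates with DMSO only and collected 4, 8 or 12 h later. The azide sugar left on chromatin was clicked to biotin, caught on streptavidin and its DNA sequenced, an assay named O-GlcNAc-seq. Larvae lacking the enzyme OGA (OGA knockout, or OGA-null, with the same Oregon R background, feeding and chase) are used only for values that the WT columns did not set. Whole larvae were used, so every value is a mixture of all their tissues, pooled over many animals, and larvae collected at 12 h were 12 h older than those of 0 h.

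O-GlcNAc is a single sugar, N-acetylglucosamine, attached by the transferase OGT to serine or threonine in proteins of the nucleus and cytoplasm, and taken off by the hydrolase OGA. In flies OGT is the product of the Polycomb group gene super sex combs, and the Polycomb group protein Polyhomeotic is one of its known substrates. In a pulse-chase, a tagged sugar is supplied for a time and then withdrawn. The tagged sugar then leaves a site by removal of the sugar, by breakdown of the protein that carries it, or by departure of that protein from the DNA. The assay measures the label on whatever protein is cross-linked at a place and does not tell these routes apart.

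Each deposited value combines both replicates of a time, so no replicate error can be given and no difference between times was tested; an ordering of 4 times could not give a two-sided exact permutation p below 0.0833. The spread reported below is the spread over peaks, which are not replicates. Signal adds up along a peak, so it was divided by peak width where levels of different peaks are set side by side. The sources used here give neither totals per library nor how columns were scaled, and the unfed WT control was not analysed here, so depth and background are unknown. A factor shared by a whole column moves all peaks together and cancels when peaks of the same column are compared. Positions are those of the deposited table, counted from 1, on sequences named as in dm3, the fly build in the submitters' processing notes. No gene is named because no annotation of that build was used here.

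Label fell at every peak from 0 to 4 h, and by 12 h no peak kept as much as 30% of it. Signal per base started in a narrow band: at 0 h it lay between 20.6 and 57.7 with a median of 32.9, and 90% of peaks lay from 26.7 to 42.7. Later medians per base were 15.9, 10.8 and 5.41. The highest peak at 12 h, with 12.4 per base, was below the lowest peak at 0 h. Signal at 12 h was never listed at 0, and its lowest value was 1.75 per base. The bands of 0 and 4 h overlapped, since the highest peak at 4 h had 30.0 per base.

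The share of 0 h signal left at a peak ranged from 25.3 to 79.8% after 4 h, from 15.4 to 53.9% after 8 h and from 5.99 to 29.8% after 12 h. The middle 90% of peaks lay from 37.8 to 59.7% at 4 h, with a median of 48.0%. After 12 h the middle 90% lay from 11.1 to 22.3%, with a median of 16.3%. The 95th percentile of the share was thus 1.58 times the 5th at 4 h, 1.79 times at 8 h and 2.01 times at 12 h. A loss of more than 2-fold had occurred at 1171 of 1883 peaks by 4 h (62.2%) and at 1878 by 8 h. A loss of more than 8-fold had occurred at 221 peaks by 12 h (11.7%).

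The 3 intervals of 4 h did not take equal parts of the label. The median peak kept 48.0% from 0 to 4 h, 67.8% from 4 to 8 h and 50.4% from 8 to 12 h. If each interval is read as an exponential decline, these shares equal apparent half-lives of 3.78, 7.12 and 4.05 h. At 1501 of 1883 peaks (79.7%) the largest share was kept from 4 to 8 h, and at 74 (3.93%) from 0 to 4 h. The fastest interval was split, with 971 peaks (51.6%) losing most from 0 to 4 h and 797 (42.3%) from 8 to 12 h. A loss of more than 2-fold within the interval was seen at 88 peaks from 4 to 8 h (4.67%), against 918 from 8 to 12 h (48.8%). Slower loss in the middle interval and a scaling of the 4 or 8 h column that is off cannot be told apart, because each interval rests on 1 combined column at each end.

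A straight line through the median log2 signal at the 4 times had a slope of -0.208 ± 0.0169 per hour (SE of the line), which equals a half-life of 4.81 ± 0.392 h. The 4 h point lay below its peak's own line at 1704 of 1883 peaks and the 8 h point above it at 1465. The same line fitted to each peak gave half-lives from 3.12 to 7.03 h, with a median of 4.75 h and 90% of peaks from 3.93 to 5.72 h. OGA-null larvae over the same hours showed another order of intervals, with medians of 97.9% kept from 0 to 4 h, 76.8% from 4 to 8 h and 83.6% from 8 to 12 h. There the first interval, not the second, had the largest median share, and the difference between genotypes was not tested.

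Shares scattered less at wider peaks, while their medians were nearly equal in all width classes. After 12 h the median share left was 16.2% at the 679 peaks of 20 bp, the minimum width, and 16.3% at the 452 peaks of 21 to 50 bp. It was 16.3% at the 457 peaks of 51 to 100 bp and 16.7% at the 295 wider ones. Over the same classes the SD of the log2 share left at 12 h was 0.356, 0.311, 0.285 and 0.221. At 4 h the SD was 0.233 at peaks of 20 bp and 0.138 at peaks over 100 bp. The lowest and the highest share at 12 h, 5.99% on 3R and 29.8% on 2R, both belonged to peaks of 20 bp, and among the 301 peaks of 100 bp or more the range was 10.8 to 26.0%.

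The scatter shows in the counts as well. A loss of more than 8-fold by 12 h was seen at 116 of the 679 peaks of 20 bp (17.1%) but at 8 of the 295 over 100 bp (2.71%), against 11.7% of all peaks. A loss of more than 2-fold from 4 to 8 h was seen at 44 peaks of 20 bp (6.48%) and at 2 over 100 bp (0.678%), against 4.67% of all. Where the fold lay near the middle of the distribution the classes were alike: from 0 to 4 h the share of peaks past 2-fold was 63.8% at 20 bp and 61.7% over 100 bp. Spearman's rho of width with the share kept was 0.0781 from 0 to 4 h, 0.00132 from 4 to 8 h and 0.0164 from 8 to 12 h, over 1883 peaks that share their columns. Wider peaks also had more signal per base at 0 h, with a rho of 0.489, and their summed signal is larger still; the part of counting error in the scatter was not tested.

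**Figure D1:**
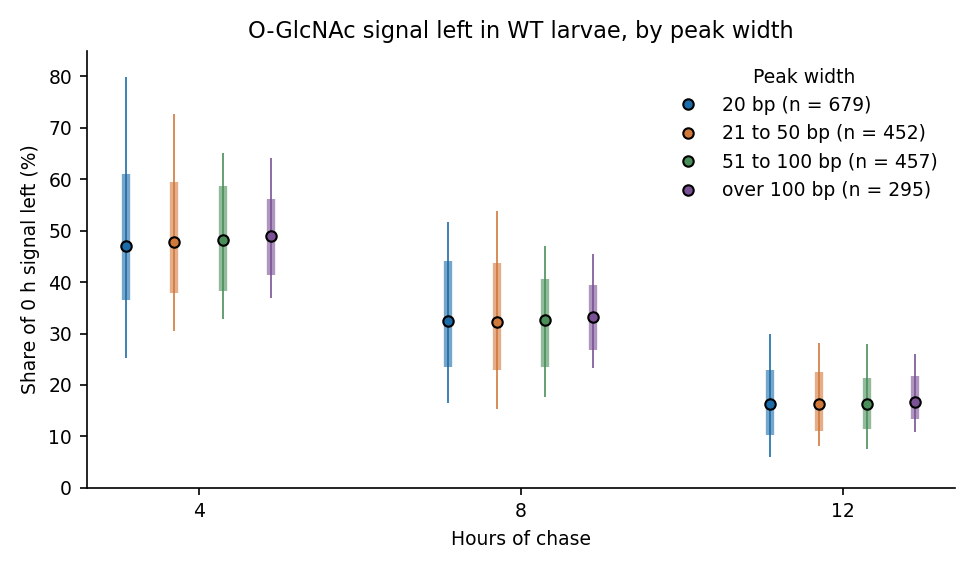
Share of the 0 h signal left after 4, 8 and 12 h in WT larvae (y axis, percent) by hours of chase (x axis), in 4 classes of peak width. Points are medians over peaks, thick bars the 5th to 95th percentile and thin lines the whole range; medians of the classes at 12 h lie between 16.2 and 16.7% while the bars shorten as peaks widen.

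The share a peak kept in the first interval said almost nothing about the share it kept from 8 to 12 h. The intervals 0 to 4 h and 8 to 12 h share no column, and over the 1883 peaks their log2 shares kept had a Spearman's rho of 0.00726 and a Pearson's r of 0.00708. Peaks in the lowest 25% from 0 to 4 h kept a median of 40.9% in that interval and those in the highest 25% kept 55.9%. From 8 to 12 h the same peaks kept 49.7 and 50.3%. Of the 471 peaks in the lowest 25% at first, 131 (27.8%) were in the lowest 25% from 8 to 12 h and 127 (27.0%) in the highest. With no replicate error known, the part of column error in these values was not tested. They therefore do not measure whether peaks had steady rates of their own.

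The value stayed small in each width class. The rho of the same intervals was 0.0127 at peaks of 20 bp, -0.0233 at 21 to 50 bp, 0.000814 at 51 to 100 bp and 0.0745 over 100 bp. At the 55 peaks over 200 bp, a class chosen after seeing the data, it was 0.119. Adjacent intervals had negative values, -0.33 for 0 to 4 h with 4 to 8 h and -0.43 for 4 to 8 h with 8 to 12 h. Adjacent intervals share a column, once as the end and once as the start, and any error in that column enters them with opposite signs, so these values are not read as an alternation of fast and slow loss. In OGA-null larvae the intervals 0 to 4 h and 8 to 12 h had a rho of 0.0380.

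The spread of the shares grew less than the time did. The SD of the log2 share left was 0.203 at 4 h, 0.260 at 8 h and 0.311 at 12 h. The value at 12 h was 1.53 times that at 4 h, over 3 times the hours. All 3 shares have the 0 h column as denominator, so its error enters each SD, and its part in the ratio was not tested. In the lowest 25% of the share kept in all 3 intervals were 6 peaks (0.319%), and in the highest 25% in all 3 there were 0. Adjacent intervals share a column that moves them in opposite directions, so these counts do not measure how many peaks were fast or slow throughout.

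**Figure D2:**
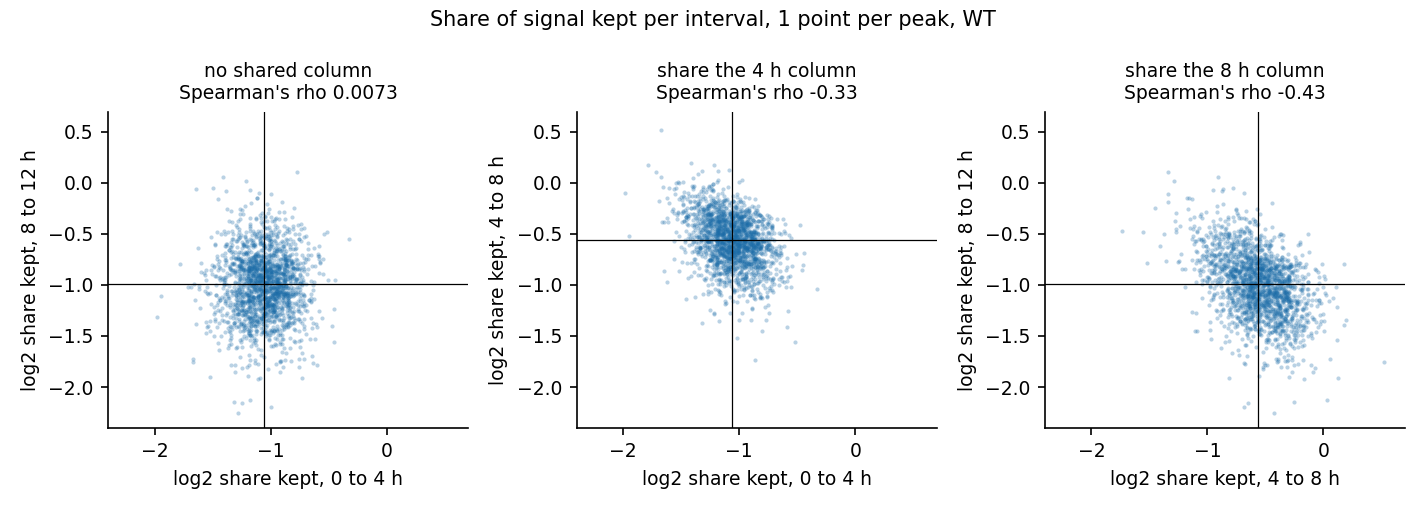
Log2 of the share of signal kept in one interval (x axis) against another (y axis), 1 point for each of the 1883 peaks, with lines at the medians. The pair 0 to 4 h and 8 to 12 h shares no column and forms a round cloud (rho 0.00726), while the other two share the 4 h or the 8 h column and slope down (rho -0.33 and -0.43).

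The relative level of a peak carried over from time to time. A share joins the errors of both its columns, so correlations of levels are not compared with those of shares kept per interval. Pearson's r of the log2 signal per base with that at 0 h was 0.644 at 4 h, 0.582 at 8 h and 0.536 at 12 h over all peaks. At peaks over 100 bp it was 0.818, 0.782 and 0.703, and at peaks of 20 bp 0.369, 0.346 and 0.335. High peaks therefore tended to stay high while the whole list fell. Wider peaks had more signal per base at 0 h (rho 0.489), and the part of width in the values over all peaks was not tested. At peaks of 20 bp width does not vary.

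Among peaks of 100 bp or more, the 4 with the least label at 12 h lay on X, 3R and 3L. The lowest, on X at 1944107 to 1944219, had a signal per base of 39.0 at 0 h, then 16.6, 9.94 and 4.19 at the 3 later times, so that 10.8% was left. The peak on 3R at 22701045 to 22701144 went from 34.1 to 16.0, 8.79 and 3.71 per base and kept 10.9%. On 3L, the peak at 4232402 to 4232525 went from 41.9 to 19.1, 11.6 and 4.56 per base and kept 10.9%. These 3 peaks kept less than the median peak in each interval.

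The fourth lost its label unevenly. The peak on 3R at 7449644 to 7449761 had 32.6 per base at first, then 13.4, 9.93 and 3.75 at the 3 later times and kept 11.5%. From 4 to 8 h it kept 74.1%, more than the median peak, and from 8 to 12 h 37.7%.

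The 4 wide peaks with the most label at 12 h lay on 2R, 3R, 2L and 3L. The highest, on 2R at 6762185 to 6762304, had 38.6 per base at first, then 19.1, 14.8 and 10.1 at the 3 later times, and kept 26.0%. Its first interval was ordinary, with 49.3% kept, and its last was slow, with 67.8% kept. The peak on 3R at 5376532 to 5376677 went from 42.6 to 23.3, 15.9 and 10.6 per base and kept 24.8%.

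The next was on 2L at 19158340 to 19158463, which went from 34.4 to 16.1, 12.0 and 8.30 per base and kept 24.1%. It was below the median share at 4 h (46.8%) and stood out only from 8 to 12 h, when it kept 69.4%. On 3L, the peak at 749304 to 749461 went from 36.1 to 19.1, 13.8 and 8.68 per base and kept 24.1%. The share kept from 8 to 12 h is a factor of the share at 12 h that chose these peaks, so its values here are a description only.

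**Figure D3:**
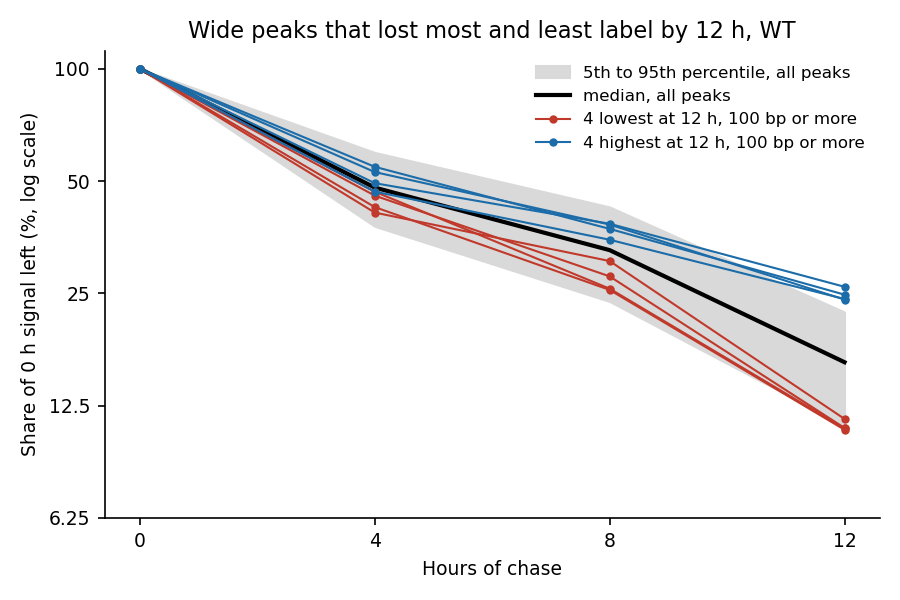
Share of 0 h signal left (y axis, percent on a log scale) by hours of chase (x axis) at the 4 peaks of 100 bp or more with the lowest and the 4 with the highest share at 12 h, WT. The black line is the median of all 1883 peaks and the grey band their 5th to 95th percentile; the chosen peaks lie inside the band at 4 h and, except the one with 11.5% left, outside it at 12 h, the time at which they were chosen.

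In columns that did not choose them, the fast and slow sets of wide peaks overlapped. In OGA-null larvae, 72.6, 67.1, 70.5 and 56.0% of the 0 h signal was left at 12 h at the 4 peaks that lost most in WT, and 67.4, 68.8, 61.3 and 69.2% at the 4 that lost least. From 16 to 24 h in WT the first set kept 15.9, 15.3, 21.2 and 37.7% and the second 15.5, 20.4, 29.2 and 19.3%. The sets do not separate in either readout.

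Of the 6 peaks in the lowest 25% of the share kept in all 3 intervals, 2 were wider than 50 bp, as were 752 of all 1883 peaks. One was the X peak at 1944107 described above. The other, on 3R at 19556533 to 19556592, went from 33.2 per base to 13.6 at 4 h, 7.76 at 8 h and 3.18 at 12 h and kept 9.58%. It kept 63.2% at 12 h in OGA-null larvae, close to the median of all peaks there (62.9%).

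The 3 peaks with the most WT signal per base at 0 h had shares at 12 h near the median in WT. That signal is also the denominator of the share, so an error that raised it would lower the share. The peak on 3R at 7394839 to 7395055 went from 57.7 per base to 27.8, 21.9 and 10.0 and kept 17.4%. That on X at 1965895 to 1966185 went from 57.5 to 25.8, 18.8 and 8.62 and kept 15.0%. The last, on 3R at 26591380 to 26591737, went from 57.3 to 26.9, 20.7 and 9.63 and kept 16.8%. All 3 kept more than the median peak from 4 to 8 h, from 72.9 to 78.6%, and less than it from 8 to 12 h, from 45.8 to 46.6%. In OGA-null larvae the 3 kept 77.2, 77.8 and 81.8% at 12 h, against a median of 62.9% over all peaks.

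On each large arm the peak of 100 bp or more with a share at 12 h nearest the median of all peaks was taken. These peaks were matched at 12 h only, not over the whole course. On 2L, the peak at 8678534 to 8678688 went from 34.9 per base to 16.9, 11.4 and 5.71 and kept 16.4%. The widest of this kind, 450 bp on 3L at 6957450 to 6957899, went from 45.4 to 21.2, 15.2 and 7.41 and kept 16.3%. On 3R, the peak at 14982518 to 14982632, which an OGA peak overlaps, reached the same 16.3% by another path, with 55.8% left at 4 h. It went from 30.1 to 16.8, 11.2 and 4.92 per base. Those on 2R at 15042664 to 15042833 and on X at 2030827 to 2031035 kept 16.3 and 16.4%.

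Signal rose in some interval at 21 of 1883 peaks, 18 of them from 4 to 8 h and 3 from 8 to 12 h. Of the 21, 14 were 20 bp wide, a width that 36.1% of all peaks had, and none was wider than 81 bp. The largest rise was on 2R at 19880448 to 19880488, where the signal per base was 32.1 at 0 h, then 10.0, 14.4 and 4.26 at the 3 later times. Its share left at 4 h, 31.3%, was among the lowest of all peaks, and its share at 12 h was 13.3%. The peaks on 3L at 3451103 to 3451122 and on 2R at 12176871 to 12176901 rose by factors that left 114% and 113% of the 4 h signal at 8 h. Both were below the median at 4 h and above it at 12 h, with 16.8 and 18.5% left. The 4 h signal is the denominator of the rise that chose these 3 peaks, so their low shares at 4 h are a description only.

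The dependence on starting signal turned with the column used to measure it. Against WT signal per base at 0 h, the share left had a rho of -0.185 at 4 h and -0.0467 at 12 h. That signal is also the denominator of the share, so an error in it pushes the values apart in opposite directions. Against the 0 h signal per base of OGA-null larvae, which enters no WT share, the rho was 0.198 at 4 h and 0.224 at 12 h. The WT 0 h signal against the share kept from 4 to 12 h, which does not use the 0 h column, gave 0.0872.

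Ranked by WT signal, the 471 peaks lowest at 0 h kept a median of 50.5% at 4 h and the 471 highest 47.4%. Ranked by OGA-null signal, the lowest 471 kept 45.9% and the highest 49.6%. At 12 h the shares were 15.3% and 17.2% in that ranking. The negative value at 4 h was largest at narrow peaks, with a rho of -0.324 at 20 bp, and was -0.0240 over 100 bp. With the OGA-null signal the rho at 12 h was positive in each width class, from 0.149 at 21 to 50 bp to 0.315 over 100 bp. In each width class peaks with more OGA-null label at the start thus tended to keep a larger share in WT. Over 100 bp the WT 0 h signal had smaller values. Its rho was 0.106 with the share left at 12 h and 0.119 with the share kept from 4 to 12 h. The 0 h signals of both genotypes had a rho of 0.780 with each other over 100 bp and 0.283 at 20 bp.

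**Figure D4:**
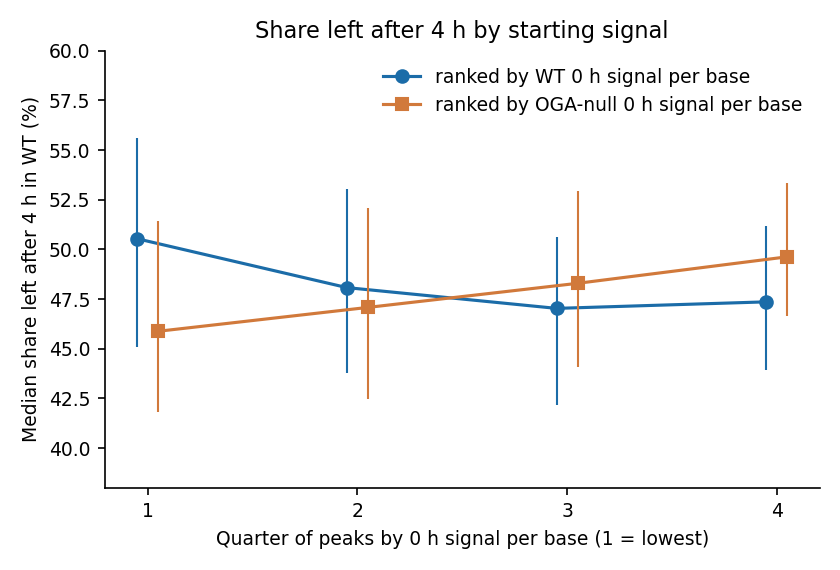
Median share of 0 h signal left after 4 h in WT larvae (y axis, percent) in 4 equal classes of peaks ranked by 0 h signal per base (x axis, 1 is the lowest), with bars from the 25th to the 75th percentile over peaks, which overlap; the y axis does not start at 0. Ranked by the WT signal, which is the denominator of the share, the median falls from 50.5 to 47.4%; ranked by the OGA-null signal it rises from 45.9 to 49.6%.

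The order of peaks recurred weakly across genotypes. WT and OGA-null larvae share no column, and their shares left at 12 h had a rho of 0.167 over all peaks, from 0.119 to 0.173 over the 4 width classes. At the 55 peaks over 200 bp it was 0.0233. The peaks lowest in WT at 12 h (lowest 25%) kept a median of 60.6% in OGA-null larvae and the highest 25% kept 64.7%. For the first interval alone the rho between genotypes was 0.122, for 4 to 8 h -0.0327 and for 8 to 12 h -0.00278. Within WT, the share left at 12 h had a rho of -0.135 with that kept from 16 to 24 h, and the share kept from 0 to 4 h one of 0.157 with that kept from 12 to 16 h. In neither of these does a column serve both intervals, but the 16 h column ends one later interval and starts the other, so the opposite signs are not read as a change of order.

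The 4 large autosomal arms lost label alike. The median share left at 12 h was 16.3% on 2L (373 peaks), 16.4% on 2R (397), 16.1% on 3L (408) and 16.5% on 3R (482). At 4 h the 4 medians lay between 47.8 and 48.4%. Within each arm the 95th percentile at 12 h was 1.93 to 2.02 times the 5th, so peaks of 1 arm differed far more than the arms did.

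The 141 peaks on X kept less, with 46.1% at 4 h and 15.3% at 12 h against 48.1 and 16.3% on the autosomal arms (1660 peaks). The difference of the median log2 shares at 12 h was -0.0985, smaller than the SD of 0.311 over the autosomal peaks, and 39.7% of X peaks were above the autosomal median. In the 2-fold counts, 98 of 141 X peaks passed from 0 to 4 h (69.5%, against 62.2% of all peaks), and 23 passed 8-fold by 12 h (16.3%, against 11.7%). Over all widths most of the difference was there by 4 h: it was -0.0601 then, and -0.0392 from 4 to 12 h, without the 0 h column. X peaks were wider, with a median of 57 bp against 36 bp, and had 34.2 per base at 0 h against 32.7. Within width classes the difference at 12 h kept its sign, from -0.152 at 51 to 100 bp to -0.0698 at 21 to 50 bp. At 4 h it was -0.0147 at 20 bp, -0.0291 at 21 to 50 bp, -0.131 at 51 to 100 bp and -0.0777 over 100 bp. From 4 to 12 h it was -0.101, -0.0175, -0.00818 and -0.0808 in the same order, so the timing differed with width. In OGA-null larvae X peaks did not keep less: their medians were 98.2% at 4 h and 63.0% at 12 h, against 97.8 and 62.7% on the autosomal arms. Many X peaks lay close together. In windows of 100 kb, the stretch from 1900001 to 2200000 held 17, 8 and 15 peaks, with medians of 14.9, 14.5 and 14.9% at 12 h. The other X windows with at least 8 peaks, starting at 10600001, 11600001 and 1500001, had 14.9, 14.5 and 18.7%. The part of this clustering in the X value was not tested.

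Peaks on the heterochromatin sequences of dm3, named with Het, kept more. Their 81 peaks had medians of 50.1% at 4 h and 18.2% at 12 h, and 67.9% of them were above the autosomal median at 12 h. The difference of the median log2 shares was 0.0580 at 4 h and 0.158 at 12 h. Only 3 of 81 had lost more than 8-fold by 12 h (3.70%, against 11.7% of all peaks). The 3 sequences with more than 20 peaks were alike, at 18.4% on 2RHet, 17.3% on 3LHet and 18.2% on 3RHet. From 4 to 12 h, without the 0 h column, the difference was 0.0993. Of the Het peaks 41 were 20 bp wide, and against autosomal peaks of the same width the difference at 12 h was 0.231. At 4 h it was -0.00204 in that width, so there the difference came after the first interval. In the wider classes the difference was already present at 4 h. It was 0.0996 at 21 to 50 bp (25 peaks), 0.113 at 51 to 100 bp (11) and 0.0739 over 100 bp (4). From 4 to 12 h it was 0.0887, 0.121 and -0.0469 in the same order, so the timing differed with width. In OGA-null larvae Het peaks kept 66.4% at 12 h and autosomal peaks 62.7%. The sources used here do not say how reads from repeats were placed, and their part in the difference was not tested.

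**Figure D5:**
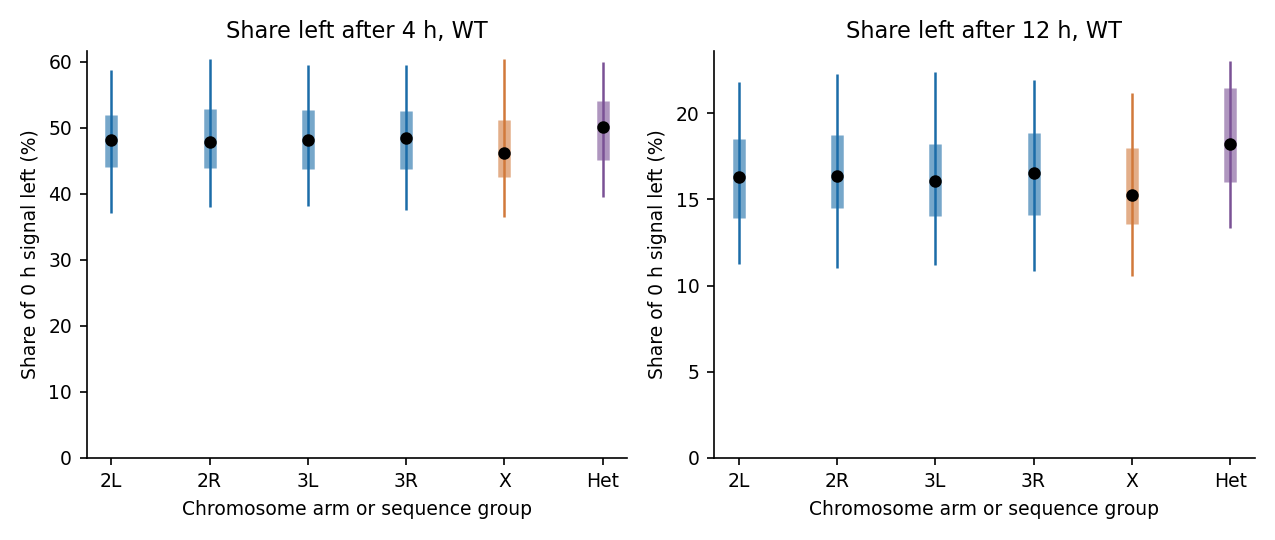
Share of 0 h signal left (y axes, percent) after 4 h and after 12 h in WT larvae for peaks on 2L, 2R, 3L, 3R, X and the heterochromatin sequences (Het). Points are medians, thick bars the middle 50% and thin lines the 5th to 95th percentile of peaks; at 12 h the median is 15.3% on X, 16.1 to 16.5% on the autosomal arms and 18.2% on Het, and all bars overlap.

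Peaks within 1 kb of OGA kept slightly less at 4 h than the others, and nearly the same share at 12 h. At 4 h the medians were 46.9% with an OGA peak within 1 kb and 48.4% without, a log2 difference of -0.0465, while the peaks that an OGA peak overlaps kept 48.9%. The 492 peaks with an OGA peak within 1 kb kept a median of 16.29% at 12 h and the other 1391 kept 16.37%, a log2 difference of -0.00683 beside an SD of 0.312. The 81 peaks that an OGA peak overlaps kept 16.1%. From 8 to 12 h these 81 kept 47.9% and the other 1802 kept 50.6%, a log2 difference of -0.0787 beside an SD of 0.316. With OGA within 1 kb the difference in that interval was 0.0153. At peaks wider than 50 bp the difference at 12 h with OGA within 1 kb was 0.0216. With OGA within 1 kb, 329 peaks (66.9%) had lost more than 2-fold by 4 h, against 62.2% of all peaks, and 61 (12.4%) more than 8-fold by 12 h, against 11.7%. The OGA list holds 1 set of intervals for the ChIP-seq libraries of both genotypes and gives no score.

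In the share left at 12 h, the closest neighbouring peaks resembled each other weakly. For the 270 pairs of adjacent peaks less than 500 bp apart, Pearson's r of the log2 share left at 12 h between the members of a pair was 0.253. It was -0.0253 for 398 pairs from 500 bp to 5 kb apart, 0.0417 for 681 pairs from 5 to 50 kb and -0.0254 for 523 pairs further apart. By single intervals the closest pairs had an r of 0.146, 0.103 and 0.0955, and pairs over 50 kb apart had one of 0.0978 from 4 to 8 h, so the interval values do not set the closest pairs apart throughout. Members of the closest pairs differed by a median factor of 1.18 at 12 h, against 1.22 in the 3 wider classes. Per the labels' protocols chromatin was sheared to fragments longer than the median gap of these close pairs, 84.5 bp, so they can share fragments. In windows of 100 kb with at least 8 peaks, 51 in all, the median share left at 12 h ran from 14.1% (3R, 7400001 to 7500000) to 19.5% (2R, 2000001 to 2100000).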

How the data were processed

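O-GlcNAc-seq signal in WT larvae at 0, 4, 8 and 12 h of chase was analysed at 1883 peaks. The deposited values are signal, not read counts: per the file headers each column combines replicates 1 and 2, and the values grow with peak width. Builds dm3 and sacCer3, bedtools 2.17.0 and SAMtools appear, with no role stated, in the submitters' processing notes. The sources used here name no aligner, peak caller or scaling, so depth is unknown and precision is described only by the spread over peaks. A change of scaling in any column would move all shares that use it.

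Shares are ratios of signals without a pseudocount, and correlations are given over peaks without p-values. Half-lives come from least squares on log2 signal. Widths, 0 h signal and distance to the nearest of 3534 OGA intervals (deposited start and end positions, no score) were set beside the shares. Named peaks are the 4 lowest and highest shares at 12 h among peaks of 100 bp or more, peaks over 50 bp extreme in all intervals, the 3 highest at 0 h, the 3 largest rises, and the wide peak nearest the median on each large arm. Members, measures and lists were chosen with earlier results of these data known. Scripts were tested on simulated data (Python 3.11.15, NumPy 2.4.6, pandas 2.3.3, SciPy 1.17.1).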

Additional observations from a re-analysis of the deposited data

How the results depend on the processing

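No paired analysis was possible because each deposited column combines both replicates; for the same reason no replicate could be left out. Of 58 alternatives for 12 results, 51 left the value within 0.1 (log2 share or correlation), 0.05 (log2 difference between groups of peaks) or 10% (half-life) of that reported. The correlation of the share left at 12 h with 0 h signal per base changed sign, from -0.0467 to 0.224 with the OGA-null 0 h signal, 0.0872 for the share kept from 4 to 12 h, 0.0258 at peaks wider than 50 bp, and 0.106 at those wider than 100 bp (limit chosen after seeing the data). The correlation of the first with the third interval moved from 0.00726 to 0.119 at peaks wider than 200 bp, also chosen after seeing the data, and lay between -0.0735 and 0.0242 in the planned settings. Over 4 to 12 h the log2 difference from the autosomal arms was -0.0392 on X and 0.0993 on heterochromatin sequences, and at peaks of 20 bp the latter was 0.231. The cause was not tested. Medians over all peaks and the half-life (4.69 to 5.17 h with 1 time left out) stayed within those limits. Merging peaks within 500 bp, adding 1 to both signals and using chromosome arms only moved no result past them. The last 2 of these settings could move little, yet they count among the 51. The lowest summed signal of a peak was 35.1 at 12 h, and arms only kept 1802 of 1883 peaks. Unknown depth limits what can be said of single narrow peaks.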
